A study of Bos taurus with 24 samples.

Results

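The collagens and other extracellular matrix genes of bovine ovarian follicles are described here across 16 follicles. They were chosen by gene symbol alone: every array feature with 1 platform symbol that begins with COL and a digit, with LAMA, LAMB or LAMC, or with FBLN and a digit, or that is one of 15 further matrix symbols such as those of fibronectin, decorin, periostin and lysyl oxidase, of which 13 were on the array. This gave 52 genes on 104 features, of 9425 named genes and 17418 features in all. Values were complete enough to test 49 of the 52 genes, among 9031 genes tested. COL1A1, BGN and NID1 were the 3 left out, with values on 16, 16 and 18 arrays.

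The samples were total RNA of the largest follicle from each of 16 heifers, with a diameter between 8 and 12 mm. A two-colour array sets 2 RNA samples side by side on the same spots, and 24 such arrays paired the follicles in a connected loop, so that each follicle was on 3 arrays. Each follicle is known by an identifier alone, with no age, breed, treatment, stage or dominance status in the labels, so the comparison is between individual follicles, each of them from 1 animal. The series is titled for follicle selection, the process by which a dominant follicle emerges while its companions regress.

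The wall of an ovarian follicle holds 2 kinds of matrix. A basement membrane, a sheet of collagen IV and laminin networks tied together by nidogens, surrounds the granulosa cells that line the follicle, and further basement membranes surround blood vessels and smooth muscle. The theca outside the granulosa is a vascular connective tissue whose fibroblasts and smooth muscle cells secrete fibrillar collagens, mainly types I and III, with type VI beaded filaments, small leucine-rich proteoglycans that bind the fibrils, and elastic fibres that lysyl oxidase crosslinks. Whole follicles were extracted, so fewer cells of a type and less RNA per cell cannot be told apart.

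A level below is the estimated log2 amount of a gene's RNA in a follicle relative to the mean of all 16 follicles. Its standard error (SE) comes from the gene's array error over the whole fit, scaled by how the follicle's 3 arrays sit in the loop. The SE holds no spread between animals, and the arrays of a follicle measure 1 RNA sample. Where 3 arrays stand beside an SE, they are the arrays that held the follicle. A difference is the highest follicle minus the lowest. The ratios were read as Cy5 over Cy3, which the labels make likely and do not state. With the opposite reading, every highest follicle becomes the lowest and every sign turns, and counts of follicles or genes above 0 become counts below 0, while the F tests, the counts of genes past the threshold and the correlations stay as they are. The folds given below rest on reading the deposited values as log2. If they are natural logs, which the files do not settle, every fold would be larger. Genes were tested for any difference among the 16 follicles by limma's moderated F test with Benjamini-Hochberg adjustment over all 9031 genes, at a threshold of 0.05. Follicle J980 stood apart in some of its cell markers, with the lowest mean level of the granulosa list at -0.74, against a highest of 0.39 in follicle 8. INHBA, FST and INHA had their lowest levels in J980, at -2.69 ± 0.17, -2.05 ± 0.10 and -0.77 ± 0.14 (SE, 3 arrays each). INHBA and FST had the largest SDs of the list, 0.83 and 0.68, and weigh most in its plain mean. The other tested genes of the list, CYP19A1, FSHR, AMH, HSD17B1 and NR5A2, were lowest in other follicles. Where leaving out J980 changed a call, this is given beside the gene.

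The matrix genes differed between follicles in 19 of the 49 tested genes (38.8%), against 1020 of 9031 genes in all (11.3%). Without follicle J980 and its 3 arrays, 16 of 49 matrix genes passed, against 642 of 9058 genes (7.09%). Without follicle C10 and its arrays the count was 12 of 48, against 4.45% of all genes, and without C26 it was 11 of 49, against 4.89%. Leaving out 1 array, replicate 2 of follicle 31, lowered the count over all genes to 658. The 19 genes were 8 of 20 in the fibrillar matrix (40%), 2 of 15 in the basement membrane (13.3%) and 9 of 14 in neither class (64.3%). The median SD between follicles was 0.22 for the 49 matrix genes and 0.17 for all genes tested.

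**Figure D1:**
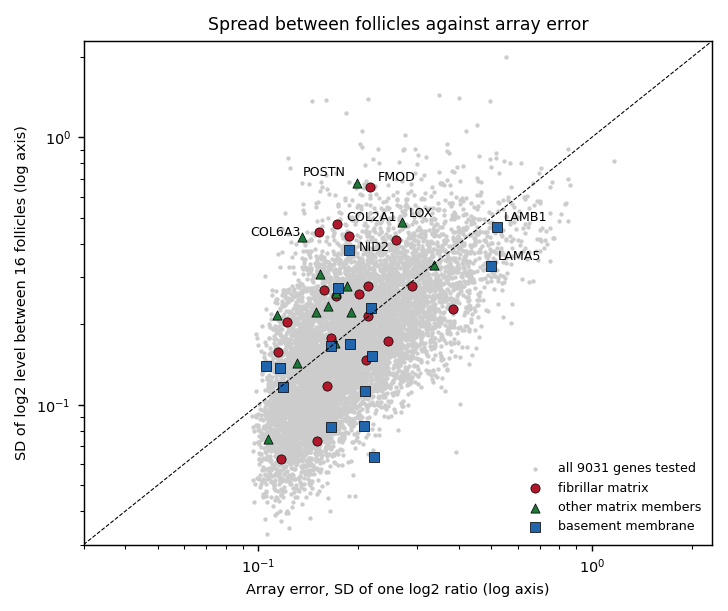
SD of a gene's log2 level over the 16 follicles (vertical log axis) against array error, the SD of 1 log2 ratio (horizontal log axis), with a point for each of the 9031 genes tested and the 49 matrix genes marked by class; the dashed line marks equal values. POSTN and FMOD have the largest SDs of the matrix genes, 0.67 and 0.65, and LAMB1 and LAMA5 lie on the side where array error is the larger.

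Periostin, the matricellular protein that fibroblasts of collagen-rich tissue secrete, and fibromodulin, a small leucine-rich proteoglycan that binds collagen fibrils, had the largest differences. POSTN had its highest level in follicle C26, 1.09 ± 0.13, a median of -0.03, and its lowest level in follicle H893, -1.06 ± 0.15 (SE, 3 arrays each). The difference was 2.15 ± 0.23, or 4.44-fold (limma adjusted p = 5.82e-05). Follicles 8, 46, C10 and 27 also had high levels of POSTN, between 0.57 and 0.94, and C12, C13 and J980 had low ones, between -0.92 and -0.61. The arrays that measured these follicles directly showed the same: C26 over its 3 partners C32, C22 and 33 had POSTN log2 ratios of 0.86, 1.41 and 1.32, and H893 over C12, 31 and 861 had -0.37, -0.93 and -0.33. The 3 POSTN features ran together over follicles (median pairwise r = 0.933), and all 3 passed the test on their own.

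FMOD had its highest level in C26 as well, 1.15 ± 0.15, a median of 0.03, and its lowest in H893, -1.05 ± 0.17 (SE, 3 arrays each). The difference was 2.20 ± 0.26, or 4.60-fold (limma adjusted p = 0.00191). FMOD was also low in C13, at -0.95, and high in 26 and C32, at 0.65 and 0.62. Follicle 46 separates the 2 genes, with POSTN at 0.79 ± 0.15 and FMOD at -0.52 ± 0.17. Decorin, the other proteoglycan of this class that passed, had its highest level in C26, 0.51 ± 0.18, a median of -0.01, and its lowest in C13, -0.73 ± 0.19, with J980 next at -0.71. The DCN difference was 1.24 ± 0.28 (adjusted p = 0.0114), and DCN no longer passed without C10, without C26 or with unmoderated variances. Lumican, whose gene neighbours DCN in the RefSeq annotation, had levels between 0.33 ± 0.16 in C12 and -0.24 ± 0.16 in H893 and did not pass (adjusted p = 0.493). LUM and DCN levels had r = -0.042 over the 16 follicles.

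**Figure D2:**
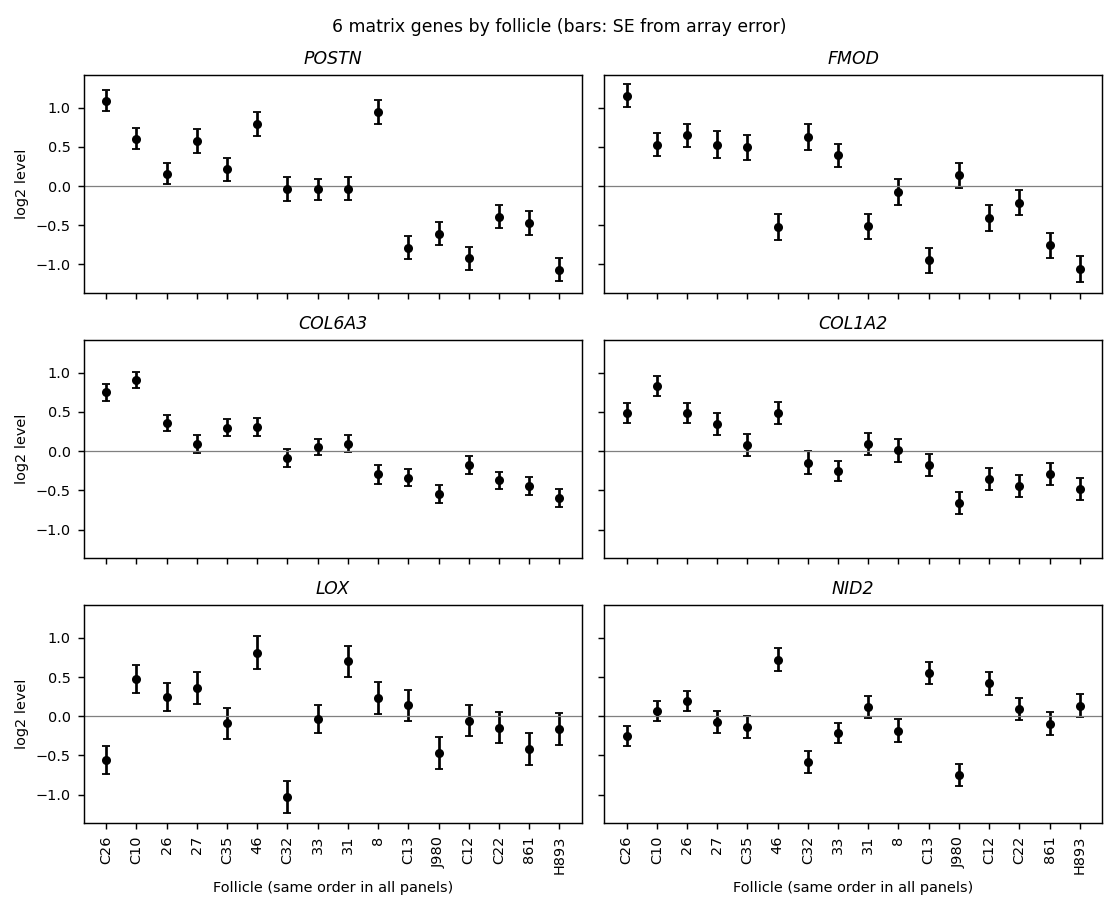
Log2 levels of 6 matrix genes in the 16 follicles relative to their mean, with follicles along the horizontal axis and SE bars from array error. POSTN and FMOD peak in C26 and are lowest in H893, COL6A3 and COL1A2 peak in C10, and LOX and NID2 peak in 46, with their lowest levels in C32 and J980.

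Of the 8 fibrillar collagens tested, 4 passed (50%, against 11.3% of all genes): COL1A2, COL2A1, COL3A1 and COL11A1. COL1A2 encodes the second chain of type I collagen, the main fibre-forming collagen. Its highest level was in follicle C10, 0.84 ± 0.13, its median was -0.07 and its lowest level was in J980, -0.66 ± 0.14 (SE, 3 arrays each). The difference was 1.49 ± 0.21, or 2.81-fold (limma adjusted p = 0.00102). Follicles 26, 46 and C26 stood together at 0.48 to 0.49, and H893 and C22 were low at -0.48 and -0.44. On the arrays themselves, C10 over 861, 26 and 31 had COL1A2 log2 ratios of 1.17, 0.34 and 0.71, and J980 over 8, 27 and 26 had -0.43, -1.06 and -1.31. COL1A2 kept its call without J980, as it did in all 24 fits that left out 1 array.

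COL3A1, the partner of type I in soft connective tissue, had a smaller difference of 0.70 ± 0.11 between C10, at 0.34 ± 0.083, and H893, at -0.36 ± 0.094, with a median of -0.01 (adjusted p = 0.0135). This value averages the features of the gene, of which 3 were tested and 1 passed. With 1 feature taken per gene, the adjusted p of COL3A1 was 0.977, and the gene did not pass without H893, C10 or C26 either. COL11A1, a minor chain that nucleates fibrils and is best known from cartilage, had its highest level in 27, 0.40 ± 0.13, a median of -0.07 and its lowest level in J980, -0.51 ± 0.13 (adjusted p = 0.0234). It did not pass without J980, H893, C10 or C26.

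COL2A1, the main collagen of cartilage fibrils, had the largest difference of the fibrillar collagens tested. Its level was 1.15 ± 0.12 in C10, ahead of 46 at 0.62 and C13 at 0.34, with a median of -0.06, and its lowest level was -0.74 ± 0.13 in C22 (SE, 3 arrays each). The difference was 1.89 ± 0.20, or 3.70-fold (limma adjusted p = 3.96e-04), and it passed in every fit run, the one without C10 included. C10 over 861, 26 and 31 had COL2A1 log2 ratios of 1.48, 0.86 and 0.98. Of the other collagens best known from cartilage, COL11A1 passed as given above, COL9A2 had an adjusted p of 0.750 and COL11A2 one of 0.933. COL5A3, COL24A1 and COL27A1 did not pass either, with adjusted p of 0.529, 0.842 and 0.684.

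COL1A1 partners COL1A2 in type I collagen but had values on 16 arrays, 0 of them with J980, and received no level. Its array ratios can be set beside those of COL1A2. The log2 ratios of COL1A1 and COL1A2 had r = 0.869 and rho = 0.850 over these 16 arrays, which share follicles, and the same sign on 14. For COL1A1, C10 over 861 was 1.36, C26 over C22 was 1.08 and 46 over C12 was 0.86.

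Type VI collagen forms beaded filaments between fibres from 3 chains. COL6A3 had its highest level in C10, 0.91 ± 0.10, a median of -0.02 and its lowest level in H893, -0.60 ± 0.12 (SE, 3 arrays each), with J980 next at -0.54. Its difference was 1.50 ± 0.14, or 2.84-fold (limma adjusted p = 2.53e-04), and C26 followed C10 at 0.75. COL6A1 ranged from 0.46 ± 0.11 in follicle 33 to -0.44 ± 0.12 in H893 (adjusted p = 0.0316), and COL6A1 passed in 12 of the 24 fits without 1 array, and not without J980, H893, C10 or C26. COL6A2, a neighbour of COL6A1 in the RefSeq annotation, did not pass (adjusted p = 0.0975), and its levels had r = 0.882 with those of COL6A1. The other 6 genes of the fibril-associated class did not pass. Of them, COL14A1 had 0.56 ± 0.16 in J980 and -0.31 ± 0.16 in 31 (adjusted p = 0.109), and COL22A1 had 0.88 ± 0.22 in J980 and -0.48 ± 0.20 in 33 (adjusted p = 0.252, and 0.438 without J980). Without J980, COL14A1 passed (adjusted p = 0.0410). The COL14A1 level averages 5 features with pairwise r between -0.475 and 0.634. Of these, 1 passed alone and was highest in C26, at 1.23 (adjusted p = 0.00179), and another, with values on 20 arrays, was highest in J980, at 1.38. COL9A2, COL12A1, COL16A1 and COL21A1 had adjusted p between 0.222 and 0.758.

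**Figure D3:**
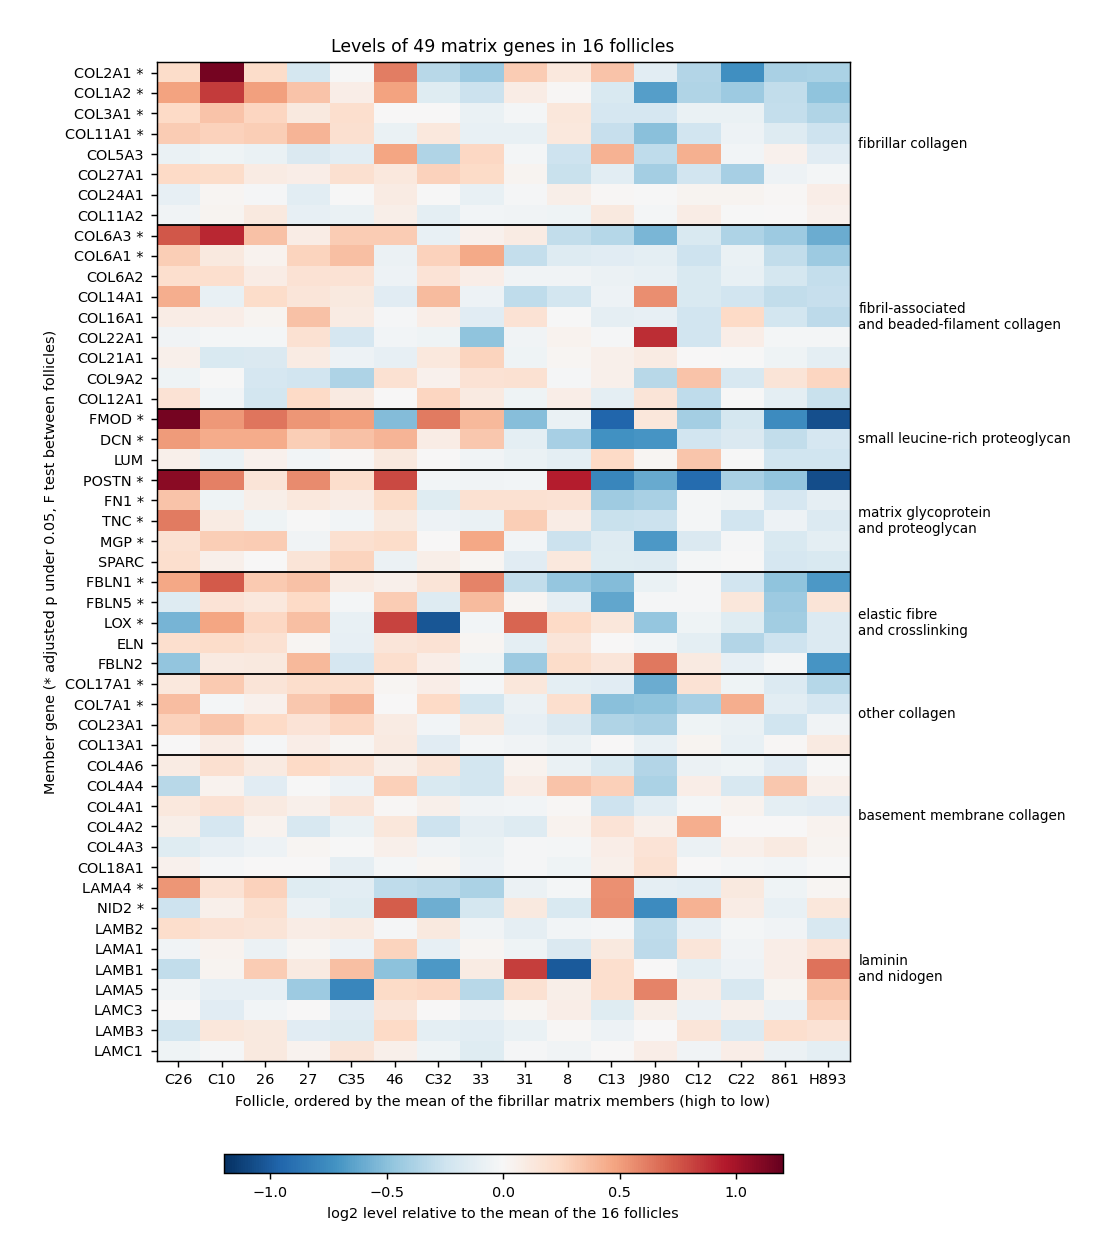
Log2 levels of the 49 tested matrix genes (rows, grouped by class) in the 16 follicles (columns), relative to the mean of the follicles, on a colour scale centred at 0. The genes that passed the test are marked, and columns C10 and C26 are mostly above 0 and H893 and 861 mostly below 0 among them outside the basement membrane class.

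Elastic fibre and crosslinking genes passed in 3 of 5 cases (60%, against 11.3% of all genes). Fibulin 1, a glycoprotein of elastic fibres and basement membranes that binds fibronectin, had its highest level in C10, 0.73 ± 0.092, a median of 0.02 and its lowest level in H893, -0.68 ± 0.10 (SE, 3 arrays each). The FBLN1 difference was 1.42 ± 0.12, or 2.67-fold (limma adjusted p = 2.30e-04). FBLN5, which helps to assemble elastic fibres, had 0.38 ± 0.12 in 33, a median of 0.01 and -0.62 ± 0.13 in C13, a difference of 2.01-fold (adjusted p = 0.00599). Lysyl oxidase, the enzyme that starts the crosslinks of collagen and elastin, did not order the follicles as the fibrillar genes did. LOX had its highest level in 46, 0.81 ± 0.21, a median of -0.04 and its lowest level in C32, -1.03 ± 0.20 (difference 1.84 ± 0.35, 3.59-fold, adjusted p = 0.00618). C26, which had the highest POSTN, FMOD and DCN, had a LOX level of -0.56 ± 0.18. C32 over C26, 8 and 27 had LOX log2 ratios of -0.62, -1.26 and -1.18. Elastin and fibulin 2 did not pass (adjusted p = 0.129 for ELN and 0.275 for FBLN2). FBLN2 had a level SD of 0.33 beside an array error of 0.34.

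Matrix glycoproteins passed in 4 of 5 cases (80%, against 11.3% of all genes), and C26 was the highest follicle for 3 of these. Besides POSTN, fibronectin had 0.34 ± 0.077 in C26, a median of 0.02 and -0.42 ± 0.084 in C13 (adjusted p = 0.00140). Its 3 features all passed but ran apart, with pairwise r between 0.0061 and 0.672, so the FN1 level averages features with different patterns. Tenascin C, a glycoprotein of remodelling tissue, had 0.63 ± 0.10 in C26, a median of -0.04 and -0.26 ± 0.11 in C13 (adjusted p = 0.00989), and did not pass without C26. Matrix Gla protein, an inhibitor of calcification, had 0.46 ± 0.13 in 33, a median of -0.02 and -0.69 ± 0.14 in J980 (adjusted p = 0.0188), and passed without J980 (0.0161) but not without H893, C10 or C26. The MGP level averages 5 features with different patterns. Of the 3 that passed alone, 1 was highest in 31, at 0.54, and the other 2 were lowest there, at -0.56 and -0.59. MGP and DCN had r = 0.863 over follicles. SPARC, which binds collagen, did not pass (adjusted p = 0.209), and its 4 features had pairwise r between -0.778 and 0.443.

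The other collagens, with 2 passing genes of 4 (50%, against 11.3% of all genes), include a pair that anchors epithelial cells to their basement membrane. COL17A1, a transmembrane collagen of hemidesmosomes, had 0.31 ± 0.11 in C10, a median of 0.05 and -0.60 ± 0.12 in J980 (adjusted p = 0.0216). It did not pass without J980, H893 or C10, nor with 1 feature per gene (adjusted p = 0.199). COL7A1, the collagen of anchoring fibrils, had 0.44 ± 0.19 in C22, a median of -0.01 and -0.50 ± 0.19 in C13, and it was the closest to the threshold (adjusted p = 0.0432). It had values on 22 arrays and passed in 3 of the 23 fits that left out 1 array and gave it a value, and not without J980, H893 or C26. COL23A1 lay just outside the threshold (adjusted p = 0.0626), with 0.33 ± 0.13 in C10 and -0.39 ± 0.14 in J980 (0.216 without J980), and COL13A1 did not pass (adjusted p = 0.539).

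The basement membrane genes that passed were LAMA4 and NID2, and none of the 6 collagens of this class did. Nidogen 2 links the laminin and collagen IV networks. NID2 had its highest level in 46, 0.72 ± 0.14, a median of -0.01 and its lowest level in J980, -0.75 ± 0.14 (SE, 3 arrays each), a difference of 1.47 ± 0.25, or 2.78-fold (limma adjusted p = 0.00977). C13 and C12 were next to 46, at 0.56 and 0.42, and C32 next to J980, at -0.59. The NID2 log2 ratios of 46 over C13 and C12 were 0.04 and -0.08, and over 861 the ratio was 1.11. NID2 passed narrowly without J980 (adjusted p = 0.0479) and did not pass without the dye term. Laminin alpha 4 is a chain of the laminins around blood vessels and smooth muscle. LAMA4 had 0.54 ± 0.13 in C13 and 0.53 ± 0.12 in C26, a median of -0.06 and its lowest level in 33, -0.38 ± 0.12 (difference 0.93 ± 0.14, 1.90-fold, adjusted p = 0.00679), and it did not pass without C26.

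For type IV collagen, COL4A1 and COL4A2 encode the chains found in most basement membranes and are neighbours in the RefSeq annotation. COL4A1 had 0.17 ± 0.081 in C10 and -0.25 ± 0.087 in C13 (adjusted p = 0.239). COL4A2 had 0.43 ± 0.14 in C12 and -0.25 ± 0.14 in C32 (adjusted p = 0.272). The levels of the pair had r = -0.370 over follicles. COL4A3, COL4A4, COL4A6 and COL18A1 had adjusted p between 0.174 and 0.992. The other laminins did not pass, from LAMB2 (adjusted p = 0.105) and LAMA1 (adjusted p = 0.221) to LAMC1 (adjusted p = 0.957), with LAMB3 and LAMC3 between. LAMB1 and LAMA5 had the largest level SDs among basement membrane genes that did not pass, 0.46 and 0.33, beside array errors of 0.52 and 0.50. The LAMA5 values average 3 features, of which only 1 had values on enough arrays to be tested alone. That feature had an SD of 0.25 beside an array error of 0.20, was highest in 861 and lowest in 27, and did not pass (limma adjusted p = 0.360). LAMB1 had values on 21 arrays, with 0.83 ± 0.38 in 31 and -1.01 ± 0.48 in 8. With 1 feature per gene, COL4A1 and LAMB2 passed too, with adjusted p of 0.0160 and 0.0471. The count for this class was then 4 of 15 (26.7%, against 11.7% of all genes).

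Across the 20 fibrillar matrix genes, the mean level was highest in C26, 0.243 ± 0.039, and C10, 0.237 ± 0.039, and lowest in H893, -0.244 ± 0.044, and 861, -0.192 ± 0.043 (SE from array error). Across the 15 basement membrane genes, the mean was highest in 46, 0.105 ± 0.040, and lowest in 33, -0.135 ± 0.035. The fibrillar mean had an SD over follicles of 0.148 with a median SE of 0.043, and the basement membrane mean had 0.074 with a median SE of 0.038. The fibrillar mean minus the basement membrane mean ran from 0.270 ± 0.051 in C26 to -0.339 ± 0.058 in H893, a range of 0.61. It was above 0 by more than 2 SE in 6 of 16 follicles (27, 33, C10, C26, C32 and C35) and below 0 by more than 2 SE in 4 (861, C12, C13 and H893). The range was 0.47 without H893 and 0.48 with 1 feature per gene. Over the genes that passed it was 1.38. That value rests on 8 fibrillar and 2 basement membrane genes selected for differing between these follicles, so a larger range was built in. The means of the 2 classes had r = -0.164 and rho = -0.100 over the 16 follicles, and r = -0.222 without C26 and C10. These correlations are descriptions, since the levels share arrays and their errors are linked through the loop.

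**Figure D4:**
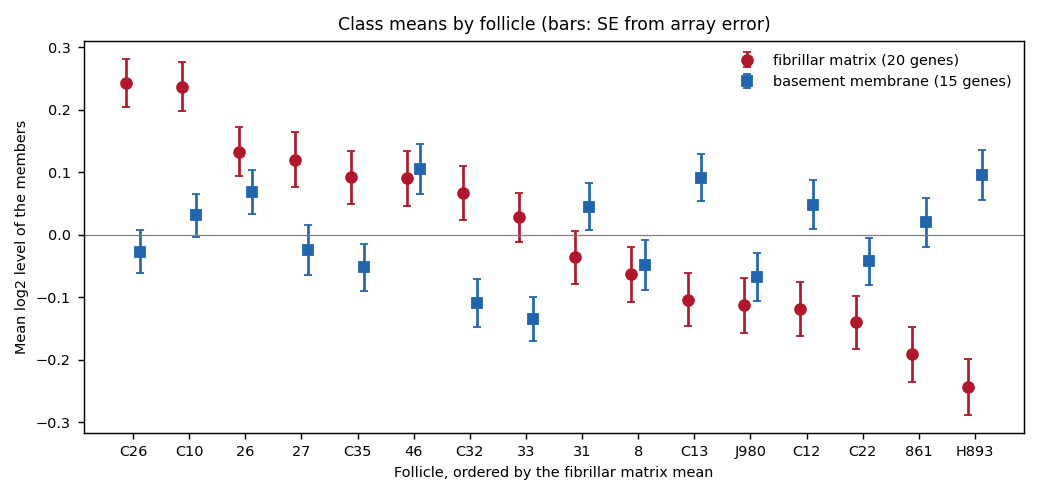
Mean log2 level of the 20 fibrillar matrix genes and of the 15 basement membrane genes in each of 16 follicles, with SE bars from array error. The fibrillar mean lies above the basement membrane mean in 7 follicles, furthest in C26, and below it in the others, furthest in H893.

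The matrix genes that passed outside the basement membrane class ran together over follicles. The 28 pairs of the 8 fibrillar genes that passed had a median r of 0.696 and all 28 were above 0, and the 136 pairs of the 17 genes outside the basement membrane class had a median of 0.552 with 131 above 0. All pairs among the 1020 genes past the threshold had a median r of 0.065, with 55.8% above 0. Without C10 and C26 the median of the 28 pairs was 0.621, and without J980 it was 0.699. The highest r was that of COL1A2 with COL6A3 (0.905, rho 0.924), followed by COL3A1 with COL6A3 and DCN with MGP (both 0.863). Of the 17 genes, 16 were above 0 in follicle 26 and 15 each in C10 and C26, whereas 0 were above 0 in 861 and 1 each in C12, H893 and J980. Over all 20 fibrillar genes tested, the 190 pairs had a median r of 0.142, and the 105 basement membrane pairs had 0.014.

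Of the 5 pairs at or below 0 among the 17 genes, 3 held LOX, with FMOD, COL6A1 and COL7A1, and the other two were COL2A1 with COL7A1 and with FBLN5. The 2 basement membrane genes that passed also had negative pairs with these genes. NID2 had r = -0.537 with FMOD and -0.380 with COL6A1, and LAMA4 had -0.496 with FBLN5. NID2 and LOX had r = 0.670 with each other, and both were high in 46 and low in C32. LOX had r = -0.254 with FMOD and 0.178 with the fibrillar mean. Between the 2 classes as a whole, 135 of 300 pairs were above 0 and the median r was -0.075.

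Several features with values on at least 20 arrays measured the same gene for 23 of the 49 genes. Their agreement limits what a gene's level stands for. The median over genes of the median pairwise r between features was 0.304. POSTN at 0.933, FBLN1 at 0.748, DCN at 0.621 and COL6A1 at 0.616 had features that ran together. Features ran apart for FN1, with a median of 0.083, TNC at 0.096, COL17A1 at 0.117 and MGP at 0.233. Follicle C13 was at opposite ends in 2 features of elastin: 1 feature had 1.72 in C13 and -1.37 in C22 (adjusted p = 7.88e-04), and another had 0.97 in C26 and -0.87 in C13 (adjusted p = 0.0289). For SPARC, 1 feature had r = 0.884 with the fibrillar mean and another -0.814. Among features, 36 of 95 of the matrix genes passed, against 1994 of 16358 in all (12.2%).

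The mean of the collagen processing enzymes had a low r with the fibrillar mean, and the enzymes differed among themselves. Of 17 tested genes of the list of collagen processing enzymes, 4 passed (23.5%, against 11.3% of all genes), and the mean of the list had r = 0.179 with the fibrillar mean, or 0.102 without J980. Without J980, 3 of the 17 passed, PLOD1 being the one lost (background 7.09%). By gene, r with the fibrillar mean lay between -0.52 for LOXL3 and 0.638 for PLOD3, with PLOD1 at 0.559 and SERPINH1 at -0.123. PCOLCE2 and SERPINH1 had the largest SDs of the list, 0.51 and 0.44, and PCOLCE2 did not pass (adjusted p = 0.846). SERPINH1, the collagen chaperone of the endoplasmic reticulum, had 1.46 ± 0.10 in follicle 31 and -0.47 ± 0.11 in J980 (adjusted p = 3.50e-04, and 0.00231 without J980). LOXL4, a lysyl oxidase relative, was also highest in 31, at 0.96 ± 0.094, and lowest in 861, at -0.30 ± 0.097 (adjusted p = 3.50e-04). Follicle 31 had a fibrillar mean of -0.036. LOXL1 followed LOX, with 0.97 ± 0.18 in 46 and -0.41 ± 0.17 in C32 (adjusted p = 0.00619). PLOD1, a lysyl hydroxylase of procollagen, had 0.18 ± 0.095 in C26 and -0.40 ± 0.10 in C13 (adjusted p = 0.0442).

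Other matrix components passed in 8 of 32 tested genes (25.0%, against 11.3% of all genes), and the mean of that list had r = 0.808 with the fibrillar mean. Without J980, 6 of 32 passed, without LTBP2 and AEBP1 (background 7.09%). Asporin, a relative of decorin, had 0.71 ± 0.096 in 33 and -0.53 ± 0.13 in J980 (ASPN, adjusted p = 5.16e-04, and 0.00277 without J980). Thrombospondin 2 was highest in C26, 0.56 ± 0.093, and lowest in 861, -0.48 ± 0.10 (THBS2, adjusted p = 4.37e-04). SMOC2 had r = 0.840 with the fibrillar mean and was highest in C10 and lowest in H893 (adjusted p = 0.0147), as was LTBP2 (adjusted p = 0.0344). CCN1 and CCN2, matricellular proteins of an immediate early response, had their highest levels in 33, 1.47 ± 0.14, and C22, 0.71 ± 0.084, with r of 0.064 and 0.351. SPARCL1 and AEBP1 were the other members that passed (adjusted p = 0.0263 and 0.0213).

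Matrix receptors passed in 4 of 16 tested genes (25.0%, against 11.3% of all genes), also without J980, with r = 0.772 between their mean and the fibrillar mean. The syndecan SDC4 had the largest difference, between 1.36 ± 0.19 in 46 and -1.01 ± 0.19 in H893 (adjusted p = 1.69e-04). CD44, the hyaluronan receptor, was highest in C26 and lowest in 861 (0.53 ± 0.098 and -0.41 ± 0.11, adjusted p = 0.00129), and SDC2 and ITGB5 passed as well (adjusted p = 7.76e-04 and 0.00406). Of 12 tested matrix-degrading enzymes and inhibitors, 2 passed (16.7%), close to the 11.3% of all genes, both inhibitors of proteases: TIMP1 had 0.54 ± 0.19 in 46 and -0.58 ± 0.19 in H893 (adjusted p = 0.0308), and SERPINE2 had 0.39 ± 0.11 in C32 and -0.55 ± 0.11 in J980 (adjusted p = 0.0289, and 0.0642 without J980).

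Some cell type marker lists moved with the fibrillar mean and others did not, and their part in the result was not tested. The mean of 9 tested genes of the smooth muscle and stroma list, of 11 listed, ran from 0.17 in C10 to -0.23 in J980 and had r = 0.862 with the fibrillar mean (0.822 without C26 and C10, 0.906 without J980). Of its 9 genes, S100A4 and ACTA2, the smooth muscle actin, passed (22.2%, against 11.3% of all genes). ACTA2 did not pass without J980 (adjusted p = 0.192). Single genes of the list had r with the fibrillar mean between 0.007 for CNN1 and 0.752 for S100A4. DES had 0.087 and VIM 0.277, and VIM was highest in J980, at 0.66, where the list mean was lowest. Of the 19 matrix genes that passed, DCN and COL6A3 had the highest r with this list, both 0.891, then COL17A1 with 0.878 and MGP with 0.836. The lowest were LAMA4 with 0.074, NID2 with 0.204 and LOX with 0.318. The leukocyte list had 10 of 10 genes tested and 5 past the threshold (50%, against 11.3% of all genes). They were CD68, LAPTM5, CORO1A, BOLA-DRA and CD74, of which CD68 did not pass without J980. The mean of this list ran from 0.47 in C26 to -0.32 in H893 and had r = 0.604 with the fibrillar mean. BOLA-DRA, CD68 and CORO1A had its largest SDs, 0.59, 0.48 and 0.43, and weigh most in this plain mean. By gene, r with the fibrillar mean lay between -0.343 for CD14 and 0.746 for LAPTM5, with ITGB2 at 0.092 and CD163 at 0.329. FMOD and COL6A1 had r = 0.885 and 0.804 with the mean of the leukocyte list, and NID2 had -0.622. The endothelium list, with 4 of 7 tested, ran from 0.64 in C26 to -0.52 in H893 (r = 0.636). PECAM1 alone of these passed (25%, against 11.3% of all genes). PECAM1 and CLDN5 had the largest SDs of the 4, 1.11 and 0.72, and so weigh most in this plain mean. The r of single genes with the fibrillar mean was 0.576 for PECAM1, 0.401 for CLDN5, 0.212 for VWF and 0.078 for ENG. PECAM1 had r = 0.982 with the immunoglobulin heavy chain gene IGHG1, a plasma cell product.

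The granulosa list had r = -0.183 with the fibrillar mean over 16 follicles and -0.484 without J980. It had 8 of 9 genes tested and 4 past the threshold (50%, against 11.3% of all genes), namely AMH, INHA, INHBA and FST. The theca endocrine list had 4 of 7 genes tested and 3 past the threshold (75%, against 11.3% of all genes), namely CYP11A1, INSL3 and HSD3B1. Its mean ran from 0.38 in C12 to -0.32 in J980 and had r = -0.067 with the fibrillar mean. Without J980 the r was -0.182, and HSD3B1 alone of the list passed. The genes of this list went different ways, with r of 0.469 for INSL3, 0.068 for HSD3B1, -0.092 for CYP11A1 and -0.422 for NR5A1. INSL3 was highest in J980, at 0.19 ± 0.10, where the list mean was lowest. The erythrocyte and oocyte lists rested on 1 and 2 tested genes, with r of 0.047 and 0.476, and ZP3 passed, though not without J980. Ratios of this kind have no zero, so an absent marker cannot be told from one equal in all follicles.

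**Figure D5:**
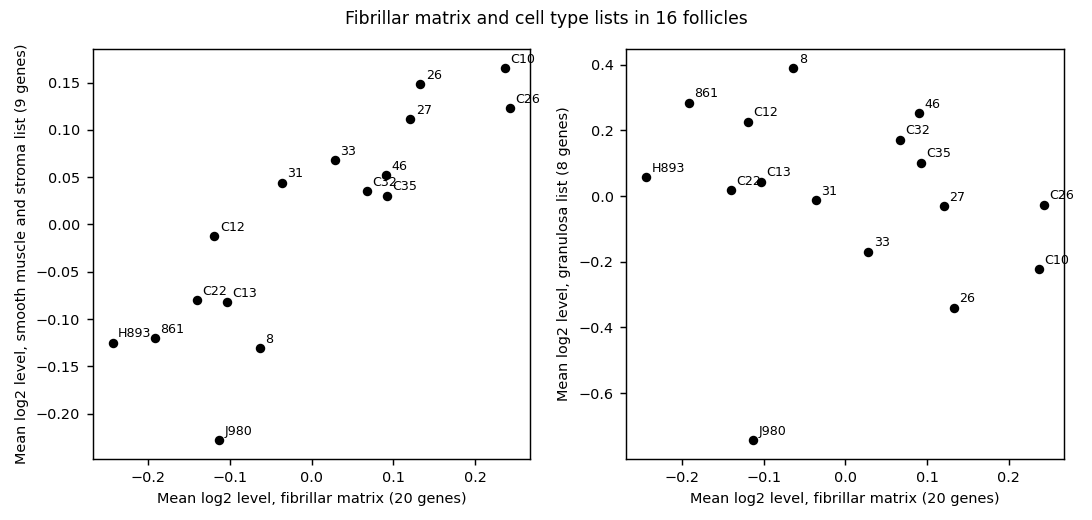
Mean log2 level of a cell type marker list (vertical: smooth muscle and stroma on the left, granulosa on the right) against the fibrillar matrix mean (horizontal, log2), with a point for each of 16 follicles. The follicles lie along a rising band for the smooth muscle and stroma list (r = 0.862), and follicle J980 lies far below the rest for the granulosa list (-0.74). In that J980 mean, INHBA and FST weigh most, at -2.69 and -2.05.

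The genes outside the set whose levels were most like the fibrillar mean, among 1001 that passed the test, were MORN2 (r = 0.958, rho = 0.894), PTN (0.905), RTRAF (0.880), PRKAR1B (0.860), SERINC5 (0.847) and UQCRH (0.843). PTN, the heparin-binding growth factor pleiotrophin, had 1.25 in C26 and -0.82 in C13 (limma adjusted p = 3.78e-04). Those most like the basement membrane mean were TMEM88 (0.801), GSPT1 (0.746), PSMD1 (0.704), AXL (0.698), NARS2 (0.689) and INHCA (0.684). The lower values for the basement membrane stand beside its smaller SD over follicles.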

How the data were processed

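Per the labels, RNA extracted with a column kit was labelled with dendrimer reagents, hybridised as pairs of follicles, and scanned, with image analysis by GenePix Pro 4.0.1.12. The authors deposited log ratios of the channels, treated as log2: values reached 6.32 in size, and a log10 ratio of 16-bit intensities cannot exceed 4.82, while natural logs are not settled. Deposited array medians lay between -0.014 and 0.0064, so arrays had been centred. The sources used here do not give how the authors corrected background, filtered spots or normalized. Signal over background is unknown, and the number of arrays limits the precision (median SE of a level 0.13). Unused columns of per-sample values numbered 0.

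Symbols came from the platform annotation, and 14 features that list a matrix gene among several symbols were left out. Of 13605 features with 1 symbol, 13575 were found by gene ID in the RefSeq table of ARS-UCD2.0, used for names and neighbours only. Each array was centred on its median and the features of a gene were averaged. Genes with values on at least 20 of 24 arrays were fitted with follicle effects and a common dye term (8 residual degrees of freedom), and all follicle effects were tested by an F test with variances moderated by limma 3.58.1 in R 4.3.3, Benjamini-Hochberg adjusted over all genes. The script was tested on simulated data. Mean levels of lists are plain means over tested genes. Figures used matplotlib 3.10.9 in Python 3.11.15.

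Genes were named by rule: matrix genes past the threshold, the 4 others of largest SD, list genes past the threshold, the 6 most like each class mean, and marker list means. Others were named after their values were seen. Members, classes, lists, tests and alternatives were chosen with earlier results of these data known. Alternatives changed centring, scaling, array minimum, dye term, moderation, feature per gene, class score, arrays and follicles. Those without H893, C10 or C26 were chosen after seeing the data.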

Additional observations from a re-analysis of the deposited data

How the results depend on the processing

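Of the 19 matrix genes that passed, 13 passed in all 24 fits that left out 1 array, and 9 passed in every fit run (COL1A2, COL2A1, COL6A3, FBLN1, FBLN5, FMOD, FN1, LOX and POSTN). Leaving out 1 array gave 15 to 20 matrix genes, 6 to 8 of the fibrillar class, 2 of the basement membrane class, a range of 0.53 to 0.65 for the fibrillar mean minus the basement membrane mean, and 658 to 1122 genes in all, the lowest without replicate 2 of follicle 31. Without the dye term, 579 genes, 1245 features and 1 basement membrane gene passed. With unmoderated variances, 576 genes and 5 fibrillar genes passed. With 1 feature per gene, 4 of 15 basement membrane genes passed (26.7%, against 11.7% of all genes) and the range was 0.478. Without J980, 642 genes passed. Without H893, 5 of 20 fibrillar genes passed (25%, against 7.54% of all genes) and the range was 0.474. Without C10, 395 genes, 12 matrix genes and 4 fibrillar genes passed. Without C26, 438 genes, 11 matrix genes, 4 fibrillar genes and 1 basement membrane gene passed. The range was 0.425 with class medians. It was 1.38 with genes past the threshold only, a set selected for differing between these follicles. Dropping a follicle also leaves fewer arrays; beyond that the cause was not tested.

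The difference between the follicles highest and lowest in the full fit turned sign for 4 genes that did not pass: LAMC1 without C10 (adjusted p = 0.880) and without its replicate 1 (0.840), COL12A1 without C26 (0.719) and without its replicate 1 (0.726), ELN without C10 replicate 1 (0.119) and COL18A1 without J980 replicate 2 (0.895). Over the fits without 1 array, adjusted p lay between 0.594 and 0.981 for LAMC1, 0.287 and 0.897 for COL12A1, 0.0788 and 0.257 for ELN, and 0.884 and 0.997 for COL18A1. The other alternatives, namely values not centred again, arrays scaled to one spread, and minimums of 16 or all 24 arrays, gave 17 to 19 matrix genes. No paired analysis was possible because replicate numbers only name the arrays of a follicle in order, and every follicle has its own loop partners.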

Other observations

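COL1A1, BGN and NID1 had too few values for a level, and the array ratios of the last 2 are given as measured. Biglycan (BGN), a small leucine-rich proteoglycan, had log2 ratios of Cy5 over Cy3 between -0.46 and 0.66 on 16 arrays. C13 over 46 was 0.66, J980 over 8 was 0.56 and J980 over 26 was -0.54, so the 2 measured arrays of J980 had opposite signs. Nidogen 1 (NID1) had 18 values, of which J980 over 8 was 0.86 and C12 over 46 was 0.62. The NID2 ratio of C12 over 46 was 0.08. FMOD, COL14A1 and COL6A1 had r = 0.814, 0.773 and 0.690 over the 16 follicles with IGHG1, the immunoglobulin heavy chain gene, as a description. These were the highest of the 49 matrix genes, and the lowest were COL4A4, COL24A1 and LOX, with r = -0.696, -0.669 and -0.619. The COL14A1 level averages features with different patterns.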
